A study of Drosophila melanogaster with 4 samples.

Results

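Isolated H3K79me3 regions were short enriched clusters that stood alone, with at least 10 kb free of any other cluster on each side. They were taken from the list that the authors made over both replicates, called the combined list below. A cluster was counted as isolated if it lay on X, 2L, 2R, 3L or 3R, was 20 kb wide or less, and had gaps of 10 kb or more to both neighbours. The rule left out the first and the last cluster of each arm. It found 392 isolated clusters among the 6833 clusters of these 5 large arms (5.74%), and among 6943 clusters in the whole combined list. They were thus chosen by their widths and gaps in the combined list, and both are given as a description.

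The mark was mapped by ChIP-seq, in which DNA that precipitates with an antibody against a chromatin protein is sequenced, in head nuclei of wild-type Oregon-R flies at the stage labelled Mixed Adult. There were 2 H3K79me3 ChIP libraries, and 2 libraries of input chromatin that served as their background. All groups share this strain, genotype, stage and tissue, and no treatment was compared. The data are 3 lists of regions of significant enrichment on FlyBase release 5, namely 1 per ChIP library and the combined list. Because they give neither read counts nor gene values, the depth behind a cluster is unknown and the labelled tissue could not be checked by marker genes. The labels do not say whether both libraries came from separate flies, so the spread between them may be technical.

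Trimethylation of lysine 79 of histone H3 is laid down by Dot1, called grappa in flies. Unlike most studied histone marks it sits on the core of the nucleosome and not on the histone tail. It is commonly found over the bodies of transcribed genes, most of all toward their 5′ part. Which genes lie in the isolated clusters was not analysed here, because the gene table at hand is on another release than the clusters.

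The isolated clusters were small. Their median width was 2601 bases, with quartiles at 1711.75 and 4909.75 bases and extremes of 1001 and 18422 bases. The other clusters of 20 kb or less on the same arms, 6141 in number, had a median of 3346 bases. Together the isolated clusters held 1523 kb, which is 3.73% of the sequence that the combined list covered on the large arms and 1.28% of the arms themselves. Clusters under 3 kb made up more of the isolated set. Of the isolated clusters 20.2% were under 1.5 kb and 37.5% measured from 1.5 to under 3 kb, against 16.4% and 28.6% of the other clusters. At the upper end, 18.4% of isolated clusters and 27.4% of the others reached 6 kb.

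Most isolated clusters were also called in each library on its own. Of the 392, 249 (63.5%, 95% Wilson interval 58.6 to 68.1) overlapped a cluster of both libraries by at least 1 base, while 65.7% of all combined clusters on the large arms did so. A further 44 (11.2%, interval 8.47 to 14.7) overlapped a cluster of 1 library, 19 in replicate 1 only and 25 in replicate 2 only, against 13.9% of all clusters. The remaining 99 (25.3%, interval 21.2 to 29.8) were called in neither, against 20.4% of all clusters. Replicate 1 held 68.4% of the isolated clusters and replicate 2 held 69.9%. Their mean was 69.1% ± 1.08 (SD, n = 2). For all clusters on the large arms the shares were 71.3% in replicate 1 and 74% in replicate 2. The intervals cover counting error only. The combined list comes from the same 2 libraries, so these shares are descriptions. No test across the libraries was run, since an exact test over 2 pairs could not give a two-sided p below 0.5.

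Width went with whether an isolated cluster was called in the single libraries. None of the 79 isolated clusters under 1.5 kb was in both lists (0%, Wilson upper bound 4.64%), and 73 were in neither. Of the 147 that measured from 1.5 to under 3 kb, 88 (59.9%, interval 51.8 to 67.4) were in both and 25 in neither. Presence in both reached 89 of 94 (94.7%, interval 88.1 to 97.7) from 3 to 6 kb. All 72 clusters of 6 kb or more were in both. Part of the narrowest class could not hold a whole replicate cluster. No replicate cluster was narrower than 1301 bases, whereas 50 isolated clusters were narrower than that, and none of those 50 overlapped a replicate cluster, against 53 of 665 other clusters as narrow. Among the 342 isolated clusters of at least 1301 bases, 72.8% were in both lists and 14.3% in neither, and among other clusters of that width up to 20 kb the shares were 72.0% and 12.5%.

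**Figure D1:**
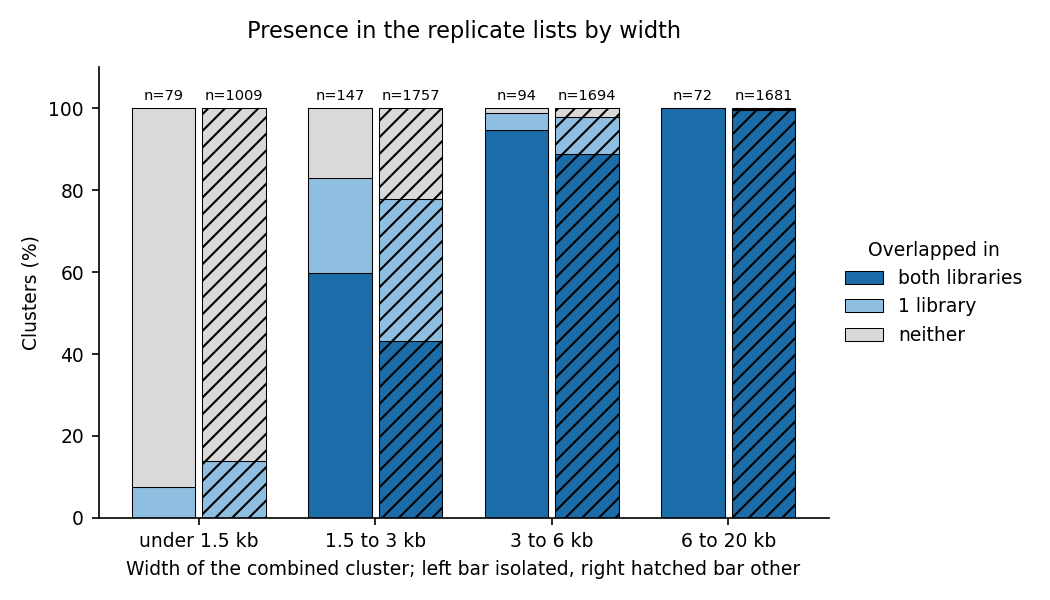
Share of combined clusters overlapped in both replicate lists, in 1 or in neither (y axis, percent), by width class in kb (x axis), for isolated clusters (plain, left) and other clusters of 20 kb or less (hatched, right). Presence in both grows with width in both groups, and at 1.5 to 3 kb it was 59.9% of isolated and 43.3% of other clusters.

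Within the width classes from 1.5 kb up, the share in both libraries was the higher among isolated clusters of the combined list. From 1.5 to 3 kb the share in both was 59.9% of isolated clusters and 43.3% of other clusters (interval 41.0 to 45.6). From 3 to 6 kb it was 94.7% and 89.0% (interval 87.4 to 90.4), and from 6 kb up 100% and 99.6%. Under 1.5 kb it was 0% in both groups. Without regard to width the shares were close, at 63.5% of isolated clusters and 64.2% of the others, a difference of -0.671 percentage points with an interval from -5.69 to 4.10. Weighted to the widths of the isolated set, the others had 55.9%, and the difference became 7.67 points. The sign of the overall difference therefore depended on how width was treated, and it also turned under stricter overlap. None of these differences was tested.

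The same rule was then applied within each library and its isolated clusters were looked up in the other library, which had no part in choosing them. Replicate 1 had 453 isolated clusters and replicate 2 had 435, or 7.07% ± 0.375 of their clusters on the large arms (SD, n = 2). Replicate 2 held a cluster at 391 of the 453 (86.3%, interval 82.8 to 89.2), against 92.1% of the other replicate 1 clusters of 20 kb or less and 91.9% of all. Replicate 1 held one at 358 of the 435 (82.3%, interval 78.4 to 85.6), against 88.7% of the others and 88.6% of all. The share found again was the lower among isolated clusters in both directions, by an amount that was not tested.

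The difference was widest among narrow clusters. Under 1.5 kb, 38.1% of the isolated clusters of replicate 1 (16 of 42) were found again, against 59.8% of the others. In the opposite direction it was 34.0% (17 of 50), against 49.9%. From 1.5 to 3 kb it was 82.8% of isolated clusters against 87.6% of others when chosen in replicate 1, and 78.6% against 80.9% when chosen in replicate 2. At 3 to 6 kb nearly all of either kind were found again, with 99.2% of isolated and 99.3% of other clusters of replicate 1, and 97.7% and 98.9% of replicate 2. From 6 kb up every isolated cluster was found again in both directions, as were 100% and 99.9% of the others. This order is the opposite of that in the combined list at 1.5 to 3 kb. More sequence is covered around non-isolated clusters, as given below, and its part in how often they meet a cluster of the other library was not tested.

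Isolation itself carried over only in part. A replicate 1 cluster isolated by the rule had a partner in replicate 2 that was also isolated in 295 of 453 cases (65.1%), and seen from replicate 2 it was 295 of 435 (67.8%). The combined list was the stricter one. Of the 453 isolated clusters of replicate 1, 247 (54.5%) met an isolated cluster there and 451 met some cluster. Of the 435 of replicate 2, these were 245 (56.3%) and 433. For 204 replicate 1 clusters the combined partner was not isolated, and 192 of these partners had within 10 kb a combined cluster that no replicate 1 cluster overlapped. The same held for 179 of 188 in replicate 2. The rule largely fixes these counts, because a cluster isolated in a library has no other cluster of that library within 10 kb. They are therefore no separate result about the regions.

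In the other direction, where a library had found an isolated combined cluster, the partner was mostly isolated too. This was largely set in advance, since almost no isolated cluster had within 10 kb a replicate cluster that overlapped no combined cluster. Of the 268 isolated combined clusters found in replicate 1, the partner was isolated there too in 247 (92.2%). The other 21 were split into 2 clusters by replicate 1. In replicate 2 the partner was isolated in 245 of 274 (89.4%). Of the 29 exceptions, 27 were split into 2 or 3 clusters, and the remaining pair had a replicate 2 cluster within 10 kb that overlapped no combined cluster. No isolated cluster had such a neighbour in replicate 1.

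Both libraries gave an isolated region nearly the same extent. Of the 249 isolated clusters found in both, the partner cluster measured 3338 bases (median) by replicate 1 and 3508 bases by replicate 2. Over all isolated clusters found in a library, these medians were 3117 and 3251.5 bases, which average to 3184 ± 95.1 bases (SD, n = 2). Partners of the other clusters of 20 kb or less averaged 3631 ± 91.9 bases by the same measure (SD, n = 2). Partners were those with the largest overlap. Between the libraries, starts lay 106 bases apart (median), against 151 bases for the 3942 other clusters found in both. Ends lay 108 bases apart, against 148 bases for the others. The width differed by a median of 195 bases for isolated clusters and 271 bases for the others. The others were the wider clusters, and borders were not compared within width classes. Whether borders differed apart from width was not tested.

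Neither library gave consistently wider regions. Replicate 1 was the wider in 128 of 249 cases (51.4%, interval 45.2 to 57.5). The wider was within 1.1 times the narrower in 162 (65.1%) and within 1.5 times in 227 (91.2%), and it exceeded 2 times in 3. Across the 249 regions, Spearman's rho between both widths was 0.94, as a description over regions that share both libraries. For the 3942 other clusters found in both, this rho was 0.90. The least equal pair was on 2R from 20145620 to 20151652, where the partner measured 2541 bases in replicate 1 and 5856 bases in replicate 2. Replicate 1 had split that region into 2 clusters. The next was on 2L from 1950433 to 1954125, with a single cluster in each library, of 1506 bases in replicate 1 and 3249 bases in replicate 2. These 2 regions were chosen after their values were seen.

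**Figure D2:**
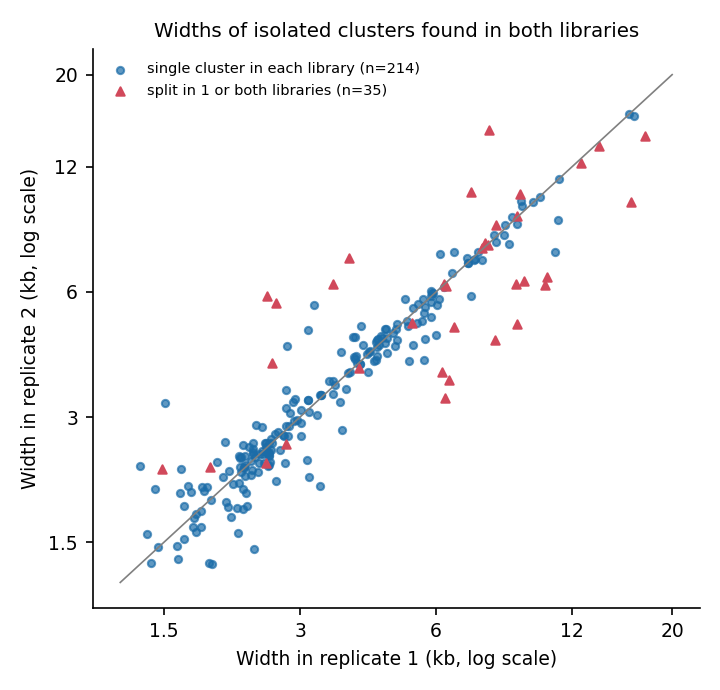
Width of the partner cluster in replicate 1 (x axis, kb, log scale) and replicate 2 (y axis, kb, log scale) for the 249 isolated clusters found in both, with the line of equal width. Circles are the 214 with a single cluster in each library and triangles the 35 that at least 1 library split; most points lie near the line, and triangles are the farther from it.

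The combined list drew the isolated regions slightly wider than the libraries did. The partner measured a median of 93.7% of the combined width in replicate 1 and 92.6% in replicate 2. In replicate 1 its borders lay inside those of the combined cluster by medians of 89 bases at the start and 103 bases at the end. In replicate 2 these medians were 78 and 98.5 bases. Replicate clusters covered over 80% of the combined cluster in both libraries for 191 of the 249 (76.7%). Splits were uncommon, with 12 of the 249 split in both libraries and 23 in 1 library. Neither coverage over 80% nor splits were counted among other clusters, so they cannot be read as particular to isolated ones.

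Isolated clusters spanned nearly the whole range of the authors' score. The score is the authors' own value per cluster, on a scale that these sources do not state, and serves here to rank clusters within a list. The median isolated cluster stood at the 49.8 percentile of the combined list, and that of other clusters of 20 kb or less at the 47.9 percentile. Above the median score of the list lay 195 isolated clusters (49.7%) and 47.9% of the others. The top 10% of scores held fewer of them: 27 isolated clusters (6.89%, interval 4.78 to 9.84) against 9.56% of the others. Score followed presence. Of the isolated clusters found in both libraries 77.5% were above the median score, against 0 of 44 found in 1 and 2 of 99 found in neither. Score and presence come from the same 2 libraries. These shares were not counted among other clusters, so they cannot be read as particular to isolated ones.

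Within the width classes from 1.5 kb up, the median score rank was the higher among isolated clusters, which was not tested. From 3 to 6 kb their median score percentile in the combined list was 70.9, against 60.6 for the others. In the replicate lists, the partners of these stood at the 65.5 percentile against 54.9 in replicate 1, and at 63.4 against 55.7 in replicate 2. From 1.5 to 3 kb the combined percentiles were 35.0 and 25.9, and from 6 kb up 79.9 and 76.2. The order was the same in both libraries in these 3 width classes. Score rose with width among isolated clusters (Spearman's rho 0.78 across 392 clusters) as it did among the others (0.74 across 6141). Scores of the 249 found in both ranked alike in the 2 libraries, with a rho of 0.92 across regions. For the 3942 other clusters found in both, rho was 0.92 as well. The score of replicate 1 was the higher in 158 of the 249 (63.5%).

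Coverage by the single libraries was very low next to isolated clusters and rose gradually with distance. Within 10 kb of the borders, where the combined list has no cluster by the rule, replicate clusters covered 0.0351% of the sequence in replicate 1 and 0.0635% in replicate 2. They covered 10.2% ± 0.222 between 10 and 20 kb from the border, 20.8% ± 0.551 between 20 and 50 kb, and 28.0% ± 0.304 between 50 and 100 kb (SD, n = 2). The mean of the large arms was 28.2%. Around the other clusters of 20 kb or less the same shells held 33.5% ± 0.782 within 10 kb, then 35.6% ± 0.608, 32.8% ± 0.451 and 31.0% ± 0.382. At 50 to 100 kb the isolated clusters were thus in sequence covered about as much as the arms on average. Only the first 10 kb are fixed by the rule. This largely holds in the libraries too, since almost no isolated cluster had there a replicate cluster that overlapped no combined cluster. Gaps in 1 region run on from there, so the next shells are not independent of the rule.

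**Figure D3:**
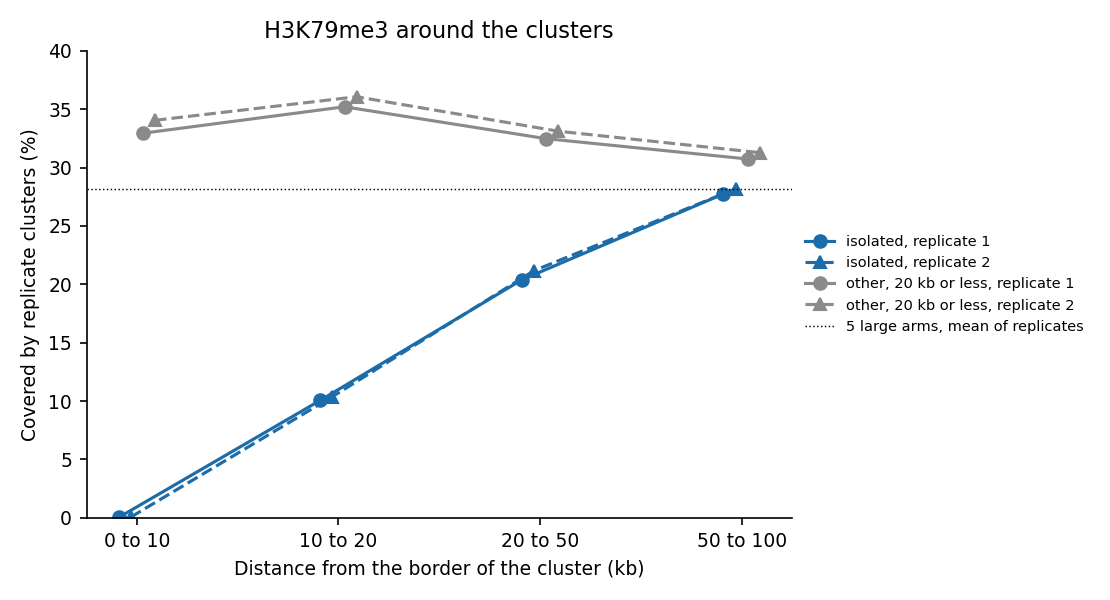
Sequence covered by replicate clusters (y axis, percent) in 4 shells of distance from the border (x axis, kb), around isolated clusters (blue) and other clusters of 20 kb or less (grey), with replicate 1 as circles and replicate 2 as triangles. The dotted line is the mean of the large arms at 28.2%; coverage around isolated clusters reached 28.0% only at 50 to 100 kb.

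Around the 99 isolated clusters found in neither library, coverage between 10 and 50 kb was lower than around the 249 found in both, in each library. From 10 to 20 kb it was 7.88% around those in neither and 11.5% around those in both by replicate 1, and 8.06% and 11.8% by replicate 2. From 20 to 50 kb it was 17.3% and 21.5% by replicate 1, and 18.3% and 22.0% by replicate 2. From 50 to 100 kb the order turned, with means of 27.9% around those in neither and 26.8% around those in both. By the combined list it was 13.1% around those in neither and 14.6% around those in both from 10 to 20 kb. From 20 to 50 kb it was 24.2% and 26.9% by that list. The groups were formed by presence in the same libraries that gave the coverage, and these differences were not tested.

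The unmarked stretch beside an isolated cluster was mostly shorter than 50 kb on its nearer side. The smaller of its gaps had a median of 18030.5 bases and was at least 20 kb in 171 clusters (43.6%), at least 50 kb in 42 (10.7%) and at least 100 kb in 3 (0.765%). Width and presence were little related to this distance. Spearman's rho between the smaller gap and width was -0.015 across 392 clusters. Of the 42 clusters with both gaps of 50 kb or more, 27 (64.3%, interval 49.2 to 77.0) were in both libraries, compared with 143 of 221 (64.7%) whose smaller gap was from 10 to 20 kb. The number with both gaps long and a width over 20 kb was 11, so the width limit removed 2.73% of 403 lone clusters.

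**Figure D4:**
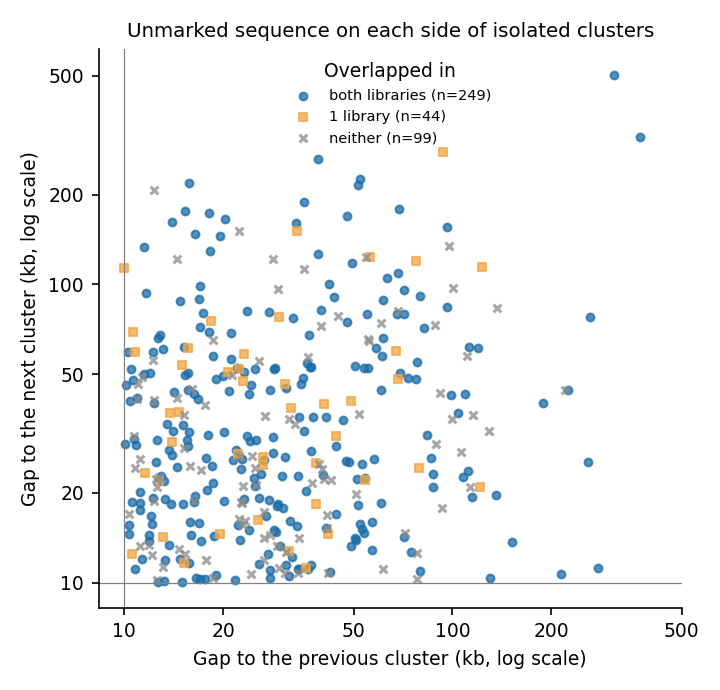
Gap to the previous cluster (x axis, kb, log scale) and to the next cluster (y axis, kb, log scale) for the 392 isolated clusters, marked by presence in both libraries, in 1 or in neither. Grey lines show the 10 kb limit; the 3 kinds are intermingled up to gaps of about 100 kb, and 3 clusters had both gaps of at least 100 kb.

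The share of long gaps was somewhat higher after a long gap than after a short one, without a test. After a gap of 10 kb or more, the next gap was also that long for 403 of 1530 clusters (26.3%, interval 24.2 to 28.6), against 1128 of 5293 (21.3%, interval 20.2 to 22.4) after a shorter gap. In replicate 1 the shares were 29.0% and 24.5%, and in replicate 2 they were 28.2% and 23.4%. Of the isolated clusters, 186 (47.4%) had another isolated cluster as the next on at least 1 side. By the rule, each neighbour of an isolated cluster already has 1 long gap. The matching share over all clusters was not counted, so this count does not show grouping.

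Isolated clusters occurred on every large arm, with the lowest density on X, a difference that was not tested. Arm 3R had 3.62 per Mb, 3L had 3.50 (86 clusters), 2R had 3.50 (74 clusters), 2L had 3.17 (73 clusters) and X had 2.59 (58 clusters). As a share of clusters they were 6.46% on 3L and 4.09% on X, at the extremes, and X had the most clusters per Mb (63.2). Median widths ran from 2359 bases on 3L to 2829 bases on 3R. Presence in both libraries ran from 57.5% on 2L (interval 46.1 to 68.2) to 68.3% on 3R (interval 58.7 to 76.6) among isolated clusters. Of all clusters, isolated or not, those in both made up 62.8% of X, 66.3% of 2L, 67.8% of 2R, 65.1% of 3L and 66.8% of 3R clusters. In neither library were 32.9% of isolated clusters on 2L, where 20.5% of all clusters were in neither, and 32.6% on 3L, where it was 20.8% of all. On 2R 17.6% of isolated clusters were in neither, with 18.2% of all clusters, and on 3R 17.8%, with 20.1% of all. On X these shares were 27.6% of isolated and 22.1% of all clusters. The arms were not tested against each other.

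A larger share of clusters was isolated near the centromere side of the arms. That side means the proximal end of each arm as assembled, with arms in their standard orientation, and the mappability of reads was not examined. In the 2 Mb at that side, 39 of 350 clusters were isolated (11.1%), against 353 of 6483 in the rest (5.45%). Isolated clusters per Mb were closer, at 3.90 and 3.24, whereas all clusters numbered 35.0 and 59.5 per Mb. The excess was not shared by all arms. Isolated were 15 of 54 clusters on 2R (27.8%), 6 of 33 on 3L (18.2%) and 7 of 53 on 2L (13.2%), but 9 of 141 on 3R (6.38%) and 2 of 69 on X (2.90%). Of the 39, 31 (79.5%, interval 64.5 to 89.2) were in both libraries, against 61.8% (interval 56.6 to 66.7) of the 353 in the rest of the arms. Of all clusters there, isolated or not, 72% were in both at the centromere side and 65.4% in the rest, so the share was the higher at that side for clusters in general too. Whether the isolated clusters differed more was not tested.

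**Figure D5:**
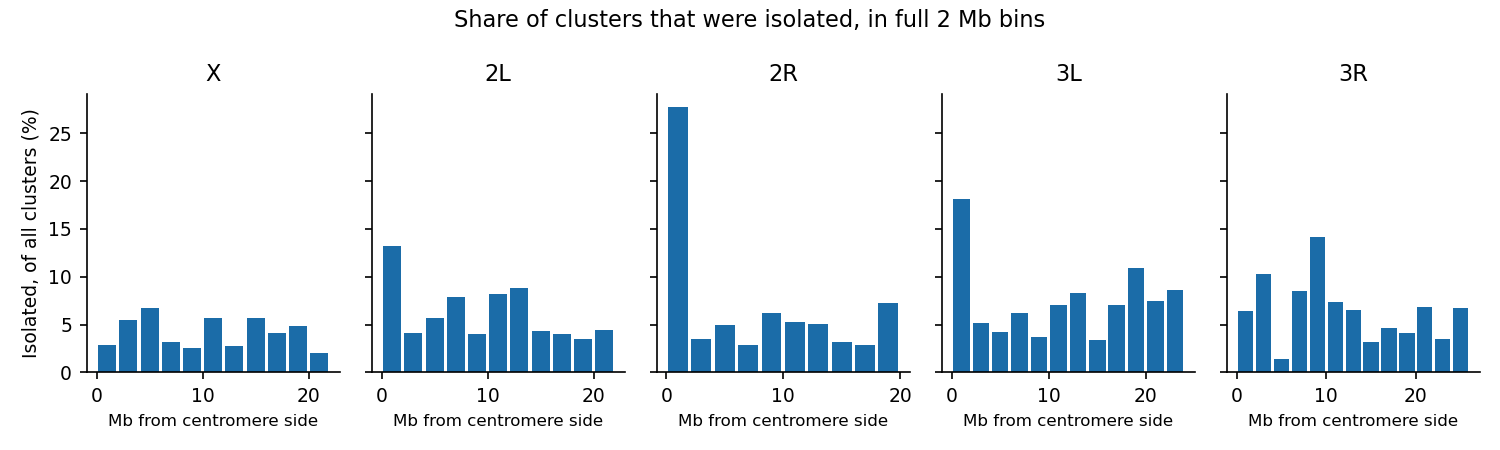
Percent of the clusters of the combined list that were isolated (y axis) in full bins of 2 Mb by distance from the centromere side (x axis, Mb), for each large arm. The highest bins are the first on 2R at 27.8% and on 3L at 18.2%, and the median of the 57 bins was 5.22%.

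The isolated clusters with the highest scores found in both libraries were wide for the set, at 5.9 to 14.6 kb. The upper quartile of isolated widths was 4909.75 bases. The first, on 3R from 9945221 to 9955728, was 10508 bases wide, with 10176 bases in replicate 1 and 10153 bases in replicate 2. Its gaps were 11450 and 49982 bases. The second, on 3L from 21669501 to 21675438, measured 5938 bases, with 5838 in replicate 1 and 5674 in replicate 2. Both stood at a score percentile above 98 in each list. The third, on X from 9564153 to 9578801, was split into 2 clusters by each library and had 93653 free bases after it. The fourth was on X from 5977554 to 5985575 and the fifth on 2R from 16525226 to 16533738. Replicates 1 and 2 gave the fourth 6586 and 7482 bases, and the fifth 8476 and 8211 bases.

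The 5 widest isolated clusters had score percentiles from 63.0 to 86.7, above the isolated median of 49.8, and all but the third were split by at least 1 library. The widest of all was on 2L from 14391202 to 14409623, 18422 bases at the 63.0 percentile of score, whole in replicate 1 and in 2 clusters in replicate 2. On X from 7615464 to 7633572 lay one of 18109 bases that both libraries split, followed by a gap of 147 kb. The third, on 3L from 3071145 to 3087665, was a single cluster of 16501 bases in replicate 1 and 15936 bases in replicate 2. It lies near the gap limit, with 10037 bases on 1 side. The others were on 2L from 1836703 to 1853207, split in replicate 2, and on 2R from 9468134 to 9484406, split in replicate 1.

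The most remote isolated clusters were a neighbouring pair on 3L near the centromere side. They lay from 23708069 to 23710414 and from 24021592 to 24025835, 0.833 and 0.518 Mb from the end of the arm, with 311 kb between them. Stretches of 374 kb before the first and 505 kb after the second, without a called cluster, set them off from the rest. Whether reads could be mapped in these stretches was not examined. Both were narrow, and both were called in both libraries, with 2197 and 2790 bases in replicate 1 and 2078 and 3476 bases in replicate 2. Their score percentiles in the combined list were 32.8 and 44.3.

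Of the isolated clusters found in both libraries, the next most remote had higher scores than that pair and lay away from the centromere side. Another 3 isolated clusters, all on 3R and with score percentiles under 20, were more remote than the first of these, with smaller gaps of 97531 to 114649 bases, but 1 was in a single library and the others in neither. On 3L from 15329795 to 15335692, a cluster with gaps of 96.1 and 156 kb had 5603 bases in replicate 1 and 5760 bases in replicate 2. On X from 3376554 to 3382309, one with gaps of 96.3 and 83.7 kb had 5480 bases in replicate 1 and 5599 bases in replicate 2. On 2L from 2577366 to 2586099, one with gaps of 79.7 and 91.5 kb had 8522 bases in replicate 1 and 8713 bases in replicate 2. Its score percentile was 97.5 in the combined list, 95.9 in replicate 1 and 96.0 in replicate 2. In these clusters on 3L, X and 2L, the widths in the libraries differed by 119 to 191 bases.

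Isolated clusters in neither library were mostly low in score, with a single one in the top 10%. Their median width was 1300 bases and their median score percentile 20.7. That one, on X from 14451741 to 14453246, measured 1506 bases and had the highest score of all isolated clusters, 1.60, at the 99.4 percentile, yet neither library had a cluster there. The next in score, on X from 6934484 to 6935489 and from 1425127 to 1426273, stood at the 50.1 and 49.6 percentiles.

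Just inside the gap limit were a cluster on X from 14336852 to 14338667, with a smaller gap of 10013 bases, and one on 3R from 10354458 to 10356589, with 10026 bases. Just outside were 2 neighbours on 2L, from 2791209 to 2799047 and from 2809009 to 2810419, separated by 9961 bases. The width limit fell between clusters of 18422 bases on 2L and 20747 bases, the wider on 3R from 6139935 to 6160681. The second widest inside was the X cluster of 18109 bases, and the second outside was on 2R from 9106592 to 9127683, with 21092 bases.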

How the data were processed

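The deposited files are lists of enriched regions from 2 ChIP libraries of fly head nuclei and their replicate set. Per the file headers, the genome build is FlyBase release 5. Each region has a score given by the authors, deposited without a stated definition. The submitters' processing notes list Bowtie 0.12.7 and do not say for which step. For the caller of regions, its cutoff and how the replicate set was built, the sources used here give nothing. Each input was the background of the ChIP library of its number, per the labels.

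Clusters were sorted along each arm, gaps were counted as bases between neighbours, and clusters were isolated at a width of 20 kb or less with both gaps of 10 kb or more. Presence was an overlap of at least 1 base, and partners were the replicate clusters with the largest overlap. Intervals are Wilson 95% intervals, for counting error only, and they treat neighbouring clusters as independent, which they are not. No significance test was run. The gap minimum, width limit, overlap rule, score filter and joining of close clusters were varied. The regions named are the 5 highest in score, 5 widest and 5 with the largest smaller gap among isolated clusters found in both libraries, the 3 highest in score found in neither, and 2 on each side of each limit. The members and lists were chosen with earlier results of these data known. The code was tested on simulated data. Gene names and sequences were not used here, since the gene table is of release 6. Software was scipy 1.17.1, pandas 2.3.3, numpy 2.4.6, matplotlib 3.10.9 and Python 3.11.15.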

Additional observations from a re-analysis of the deposited data

Results flagged for a closer look

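Isolated clusters were also present outside the large arms, in sequence that the comparisons above do not use. By the same rule, chromosome 4 held 11 isolated clusters among 56 in the combined list, of which 8 were in both libraries and 1 in neither. The heterochromatic and unplaced sequences held 24 among 54, of which 12 were in both libraries and 4 in neither. Of these 24, 11 were on the unplaced sequence U, which held 13 clusters. Gaps on U were counted along that sequence as listed. Whether they are distances on a chromosome was not tested, so isolation there is by the rule only. The isolated clusters outside the large arms are listed because no comparison above uses this sequence, and no test was run on them. Presence was not counted for all clusters of these sequences, so the counts cannot be set against such a share.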

How the results depend on the processing

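The number of isolated clusters depended on the limits: it was 831 with a gap minimum of 5 kb, 171 with 20 kb, and 589 when clusters below the median score of the list were first left out. With that score filter, the share in both libraries was 96.9% and the share found again in the other library 98.4%. Under the same filter the share in both differed by -1.01 points, isolated minus other, so it was as high among other clusters. With overlap of at least 50% of both clusters, the mean share per library was 66.2%. The difference in presence between isolated and other clusters turned positive at 1.52 points with a width limit of 10 kb, 2.80 points with at least 50% of the combined cluster covered and 6.68 points with at least 50% of both. It was 7.67 points when widths were matched. This alternative and that without the centromere side were chosen after seeing the data. The remaining 24 combinations of value and alternative include the difference of -1.01 points. In these 24, values kept their sign and stayed within their interval, the spread of both libraries or 1.5 times the count. Leaving out each replicate gave 68.4 to 69.9% for the mean share, 3117 to 3251.5 bases for partner width and 82.3 to 86.3% for the share found again. No paired analysis was possible because the input libraries have no region lists here and no test across samples was run. Without read depth, clusters near the authors' threshold have no counting error, and the cause of these dependences was not tested.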

Other observations

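The longest runs of isolated clusters following each other held 5 clusters and were found after the values had been seen. The first spanned 364 kb at the centromere side of 2R, from 74249 to 437782. It held 4 clusters present in both libraries and 1 present in a single library, all narrower than 3000 bases. The second spanned 214 kb on 2L, from 540996 to 755325, at the other end of that arm. There, 3 clusters were in both libraries and 2 in neither, and the widest measured 12467 bases.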
